A study of Mus musculus with 12 samples.

Results

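The mitochondrial genome of the mouse encodes 13 mRNAs, 2 rRNAs and 22 tRNAs, and these 37 genes are described here in sorted liver cancer organoid cells. Members were all genes of the count table whose symbol starts with mt-, which gave 37 of the 47069 genes listed. No measured value entered that rule, but the set was chosen with earlier results of these data known. The libraries were made from mouse liver cancer organoids, which are tumor cells grown in a gel as small three-dimensional clusters. The source animals were C57BL/6 mice in which diethylnitrosamine had induced liver tumors, and the genotype given for all 12 libraries is LGR5-DTRGFP+, an allele that places a diphtheria toxin receptor and GFP under control of the stem cell marker gene Lgr5. Cells were sorted by GFP into LGR5+ and LGR5- populations, from untreated organoids or from organoids exposed to 5-fluorouracil (5-FU), an inhibitor of thymidylate synthesis that is also built into RNA. The 4 groups were therefore untreated LGR5-, untreated LGR5+, 5-FU LGR5- and 5-FU LGR5+, with 3 libraries each, and the question behind them was how the 2 populations differ with and without the drug. Neither the dose and time of 5-FU for these cells nor the age of the animals is given in the labels, and no control without the Lgr5 allele was included. The labels also do not say that the replicates came from separate cultures, so the P values measure the spread between these libraries, which may be technical.

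Each library held between 13750591 and 19323514 counted reads. At these depths 3 reads, the limit that a count of 0 allows, correspond to 0.155 to 0.218 CPM, which is the reads of a gene scaled to a total of 1000000 counted reads. Of 6 hepatocyte markers, Hnf4a, Serpina1a and Ttr had no read in 11, 12 and 10 libraries, Alb reached at most 33 and Apoa1 at most 11 reads, and Afp, a fetal liver gene also made by liver tumors, was present in every library at 11.1 to 56.9 CPM. The bile duct markers Krt19 (361 to 3971 CPM) and Krt7 (631 to 5030 CPM) were present in every library, as was Sftpc, a surfactant gene of alveolar type 2 cells, at 2510 to 16351 CPM. The other bile duct markers were Epcam (669 to 1550 CPM), Sox9 (156 to 355 CPM) and Spp1 (2.05 to 20.6 CPM). The other alveolar type 2 markers were far below Sftpc. Sftpd was at 39.4 to 412 CPM and Lamp3 at 14.4 to 52.1 CPM. Sftpb was at 10.1 to 27.7 CPM and Sftpa1 at 1.24 to 36.4 CPM. Lgr5 itself ranged from 18.6 to 40.4 CPM, and the highest level was in the LGR5- replicate 3 library of the untreated organoids, so that transcript did not separate the sorted populations. Of all 66 pairs of libraries, untreated LGR5- replicate 1 and untreated LGR5+ replicate 1 were the closest, with a chi-square of 4.42 per degree of freedom over genes, against 15.1 for the next pair. In bulk RNA of this kind, fewer mitochondria per cell, fewer cells of one kind and less mitochondrial RNA per cell cannot be told apart.

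Mitochondrial DNA is a circle that is transcribed from both strands into long RNAs, which are then cut at the tRNAs that lie between most of the mRNAs and rRNAs. All 13 proteins are subunits of the oxidative phosphorylation system: 7 (mt-Nd1 to mt-Nd6 and mt-Nd4l) belong to complex I, 1 (mt-Cytb) to complex III, 3 (mt-Co1 to mt-Co3) to complex IV and 2 (mt-Atp6 and mt-Atp8) to ATP synthase. The remaining subunits, the polymerase that copies the genome into RNA and the proteins of the mitochondrial ribosome are encoded in the nucleus. In tumor cells the level of these transcripts is often read as a sign of mitochondrial content or of cell damage.

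The sequences that matter for reading the counts are the short tRNAs, the ends of the mRNAs and the stretches that nuclear copies share. Positions and sequences are those of GENCODE M21 on GRCm38, which is not the build named in the submitters' processing notes. The rRNA genes mt-Rnr1 (12S, chrM:70-1024) and mt-Rnr2 (16S, chrM:1094-2675) lie at the start of the plus strand. Of the mRNAs, 12 are on the plus strand, and mt-Nd6 (chrM:13552-14070) is the only one on the minus strand. The 22 tRNA genes are 59 to 75 bases long, shorter than the 150-base reads, and 8 of them are on the minus strand. The tRNAs for proline (mt-Tp, chrM:15356-15422), glutamine (mt-Tq, chrM:3772-3842) and glutamate (mt-Te, chrM:14071-14139), all on the minus strand, held most of the tRNA reads and are shown with the anticodon in capitals.
mt-Tp: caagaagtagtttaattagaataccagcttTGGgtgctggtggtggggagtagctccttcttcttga
mt-Tq: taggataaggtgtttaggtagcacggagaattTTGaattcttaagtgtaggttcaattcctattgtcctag
mt-Te: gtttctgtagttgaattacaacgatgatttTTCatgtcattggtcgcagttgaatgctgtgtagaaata

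Several mitochondrial mRNAs are cut so close to their last codon that the stop is finished only by the poly(A) tail, which the oligo(dT) priming of the library kit depends on. The last 30 annotated bases of 5 mRNAs are shown with the letters of the stop codon in capitals. In mt-Cytb, mt-Nd4 and mt-Co3 a single T is encoded, whereas mt-Nd1 and mt-Co1 are annotated with a complete stop. However, mt-Nd1 (chrM:2751-3707) overlaps the tRNA gene mt-Ti (chrM:3706-3774) on the same strand. The A and G of its stop are also the first bases of that tRNA.
mt-Cytb: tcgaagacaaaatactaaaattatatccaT
mt-Nd4: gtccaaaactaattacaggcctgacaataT
mt-Co3: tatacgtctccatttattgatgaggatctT
mt-Nd1: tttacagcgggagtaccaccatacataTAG
mt-Co1: gaggaaccaacctatgtaaaagtaaaaTAA

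The nuclear genome carries inserted copies of mitochondrial DNA, which the annotation lists as pseudogenes and which can take reads from the mitochondrial gene. Of the 10 listed pseudogenes found in the table, 8 aligned to a mitochondrial mRNA at over 95% identity and 5 of them without a difference. A run of 6 of them lies on the minus strand of chromosome 1, from Gm28439 (chr1:24611535-24612410) to Gm29216 (chr1:24615706-24616197). Gm29216 differs from mt-Co1 (chrM:5328-6872) at 1 of 483 aligned bases, which lies in the stretch from base 1063 to base 1142 of mt-Co1 shown here with that base in capitals.
mt-Co1: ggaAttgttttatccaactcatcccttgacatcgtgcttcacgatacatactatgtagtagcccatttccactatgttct
Gm29216: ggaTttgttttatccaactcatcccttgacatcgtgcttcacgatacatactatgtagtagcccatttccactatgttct

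Counted by windows of 150 bases, 99.8% of mt-Co3, 99.4% of mt-Co2, 99.4% of mt-Atp6, 97.97% of mt-Nd4l and 97.0% of mt-Nd3 also occurred in an annotated nuclear transcript. For mt-Nd4 the share was 59.2% and for mt-Co1 23.6%, and no window of the other 6 mRNAs or of the 2 rRNAs was shared. A read from a shared window cannot be assigned to one of the copies, and the handling of such reads is not given in the sources used here. The levels of these 7 genes are therefore uncertain, and the search covered annotated transcripts only.

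Over all 12 libraries the 37 genes received 5268080 reads, and mt-Rnr2, mt-Cytb and mt-Nd1 held 76.3% of them. Per kilobase of transcript, mt-Cytb, the cytochrome b of complex III, had the highest median of the mRNAs at 3555 CPM per kb (range 1684 to 18499), followed by mt-Nd1 at 2758 (1742 to 13085). Then came mt-Nd2 at 773, mt-Nd4 at 770 and mt-Co1 at 683 CPM per kb, whose ranges overlapped over most of their length. The minus-strand transcript mt-Nd6 (375) and mt-Nd5 (385) were close to each other. At the low end were mt-Atp6 (87.4), mt-Nd3 (80.2), mt-Co3 (79.2) and mt-Co2 (52.6), followed by mt-Atp8 (2.43) and mt-Nd4l (1.62). The 16S rRNA mt-Rnr2 had a median of 4942 CPM per kb and the 12S rRNA mt-Rnr1 one of 468.

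The span within a library, from its highest to its lowest mRNA, was between 1251-fold and 3598-fold per kilobase. The genes with nearly all windows shared with the nucleus were low: the 5 genes over 95% had medians of 1.62 to 87.4 CPM per kb, against 2.43 to 3555 for the other 8. Only mt-Atp8 was low without a shared window, and it overlaps mt-Atp6, as mt-Nd4l overlaps mt-Nd4. The part that shared windows and overlaps have in these levels was not tested.

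**Figure D1:**
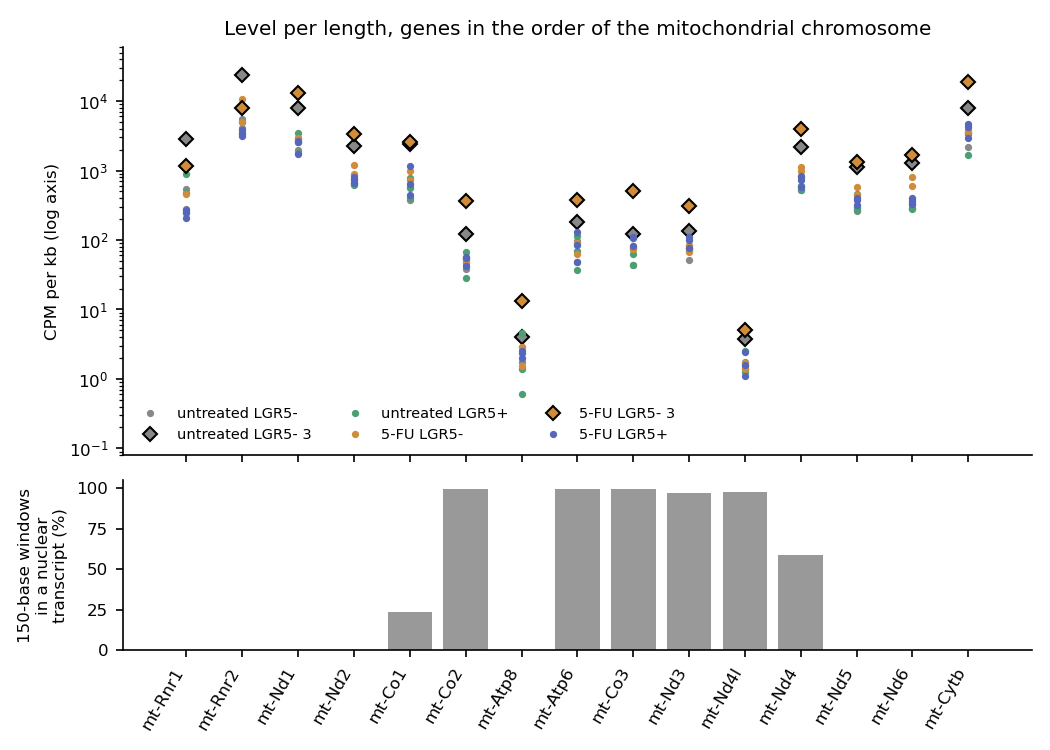
Upper panel, CPM per kilobase (log axis) of the 2 rRNAs and 13 mRNAs in gene order along the mitochondrial chromosome, 1 point per library coloured by group, with the LGR5- replicate 3 libraries as outlined diamonds. Lower panel, the share of 150-base windows of each gene that also occurs in an annotated nuclear transcript. The 5 genes over 95% have medians of at most 87.4 CPM per kb, and mt-Atp8 is low without any shared window.

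The reads of the pseudogenes were considerable for some copies. Gm28437, whose 783 bases are identical to mt-Co3, had 599 to 14763 reads and exceeded mt-Co3 itself in 10 of 12 libraries, with a median ratio of 2.39. Gm10925, the copy of mt-Atp6, had 369 to 4966 reads (median ratio to mt-Atp6 0.920), and Gm28661, the copy of mt-Co2, had 204 to 2515 reads (median ratio 0.641). Gm28438 (41 to 368 reads), Gm28439 (16 to 215), Gm29216 (46 to 1006), Gm13340 (7 to 66) and Gm13341 (4 to 64) were small beside their mitochondrial counterparts. For all 8 of these pseudogenes the highest count was in an LGR5- replicate 3 library, that of the untreated organoids for Gm29216 and Gm13340 and that of the 5-FU organoids for the other 6. Gm10222, which shares windows with mt-Nd4l, had 1 to 30 reads. The other 2 listed pseudogenes, Gm11478 and Gm21973, aligned over only 17 bases and had at most 252 and 0 reads.

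The share of counted reads on the 37 genes was small in most libraries and high in the LGR5- replicate 3 libraries of both treatments. In untreated LGR5- cells it was 1.68%, 1.64% and 6.93%, with a mean of 3.42% ± 3.04 (SD, n = 3). In untreated LGR5+ cells it was 1.49%, 2.08% and 2.01%, with a mean of 1.86% ± 0.322 (SD, n = 3). After 5-FU it was 3.08%, 2.005% and 6.44% in LGR5- cells (mean 3.84% ± 2.31, SD, n = 3) and 1.47%, 1.62% and 1.84% in LGR5+ cells (mean 1.64% ± 0.187, SD, n = 3). Leaving the LGR5- replicate 3 libraries aside, the other 10 libraries lay between 1.47% and 3.08%. Counting error was far smaller than these differences, with 95% Wilson intervals of 1.46% to 1.47% for the lowest library and 6.91% to 6.94% for the highest, and these intervals cover counting error only.

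**Figure D2:**
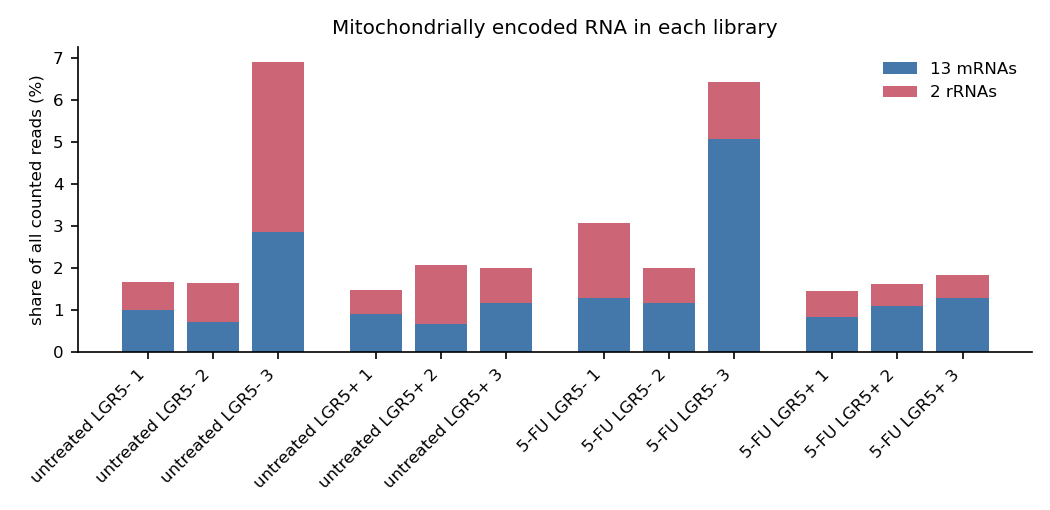
Share of all counted reads (%) on the 13 mitochondrial mRNAs and the 2 rRNAs in each of the 12 libraries, named by group and replicate and stacked so that the bar height is the total. The untreated and the 5-FU LGR5- replicate 3 libraries reach 6.93% and 6.44%, the first mainly through rRNA and the second mainly through mRNA.

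The LGR5- replicate 3 libraries had similar totals but opposite make-up. In the untreated one, the 2 rRNAs took 4.05% of counted reads and the 13 mRNAs 2.88%. In the 5-FU one, the rRNAs took 1.36% and the mRNAs 5.08%. The ratio of rRNA to mRNA reads was accordingly 1.41 and 0.267, the latter the lowest of all libraries, while the other 10 ranged from 0.424 to 2.10. Each gene was then set against the median of the other 10 libraries. In untreated LGR5- replicate 3, mt-Rnr1 stood at 7.81 times and mt-Rnr2 at 5.32 times that median, and the mRNAs at 1.62 times (mt-Co3) to 3.97 times (mt-Co1), with a median of 2.43. In 5-FU LGR5- replicate 3, mt-Rnr1 stood at 3.15 times and mt-Rnr2 at 1.75 times, and the mRNAs at 3.32 times (mt-Nd4l) to 7.27 times (mt-Co2), with a median of 4.93. In the untreated library 12 of 13 mRNAs and both rRNAs lay above every one of the other 10, the exception being mt-Atp8. In the 5-FU library it was all 13 mRNAs and mt-Rnr1, while mt-Rnr2 lay within the range of the others.

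**Figure D3:**
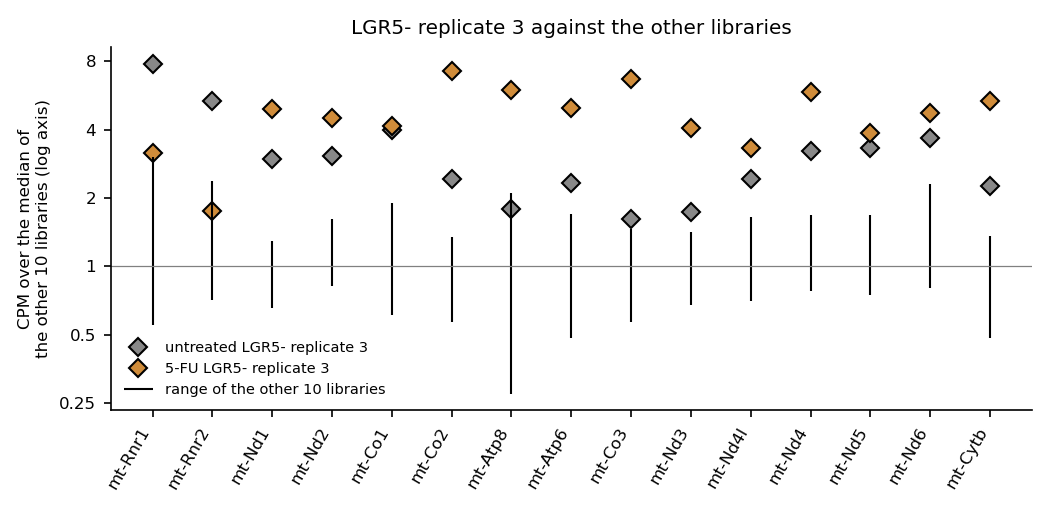
CPM of each gene in untreated and 5-FU LGR5- replicate 3 (diamonds) over the median of the other 10 libraries (log axis), with vertical lines for the range of those 10. The rRNAs are highest in the untreated library (7.81 and 5.32 times the median) and the mRNAs in the 5-FU library (3.32 to 7.27 times).

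Other measures also stood apart in these libraries. In untreated LGR5- replicate 3 the nuclear-retained RNAs Malat1 and Neat1 were at 7059 and 572 CPM, against 1496 to 2820 CPM and 56.1 to 208 CPM in the remaining 11 libraries. In 5-FU LGR5- replicate 3 Malat1 was at 2154 CPM, within the range of the others, Neat1 was at 208 CPM, above the other 10 libraries (56.1 to 192 CPM), and the epithelial adhesion gene Epcam was at 669 CPM, against 1119 to 1550 CPM elsewhere. The summed bile duct markers were at 3382 CPM there and at 5388 to 10517 CPM in the other 5-FU libraries. Leukocyte markers summed to 12.4 and 31.1 CPM in the LGR5- replicate 3 libraries, within the range of the other 10, and the T cell marker Cd3e was at 0 in every library. The nuclear subunits of oxidative phosphorylation took 5.66% of counted reads in 5-FU LGR5- replicate 3, against 3.23% to 4.21% in the other 11 libraries. Between the treatments, the summed erythroid markers were at 0.760 to 2.11 CPM untreated and 22.1 to 50.5 CPM after 5-FU, nearly all from Hba-a1, with Hbb-bs at 0 in 8 libraries. The summed hepatocyte markers, nearly all from Afp, were at 11.8 to 21.1 CPM untreated and 26.6 to 59.5 CPM after 5-FU, and the summed bile duct markers at 2644 to 3264 CPM and 3382 to 10517 CPM. Of the bile duct markers, only Krt19 and Krt7 were higher in every 5-FU library than in every untreated one. Epcam was at 1370 to 1550 CPM untreated and 669 to 1420 CPM after 5-FU, with overlap, and Sox9 and Spp1 also overlapped. The leukocyte sum, mostly Cd68, was at 6.18 to 13.9 CPM untreated and 17.5 to 52.3 CPM after 5-FU. None of these 4 sums overlapped between the treatments, whereas the sums of endothelial, fibroblast and alveolar type 2 markers and of early stress genes did. The alveolar type 2 sum was mostly Sftpc, which overlapped, as did Sftpb. Sftpd, Sftpa1 and Lamp3 were each higher in every 5-FU library than in every untreated one. For Sftpd the values were 39.4 to 72.0 CPM untreated and 280 to 412 CPM after 5-FU. Of the early stress genes only Fos did not overlap, at 10.5 to 27.9 CPM untreated and 42.4 to 64.9 CPM after 5-FU. Of all tested genes, 15.8% did not overlap in CPM between the 6 untreated and the 6 5-FU libraries. The part of these differences in the mitochondrial counts was not tested.

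In untreated organoids, LGR5+ cells showed no called difference from LGR5- cells in any mitochondrial gene. The filter on low counts left 17 of the 37 genes for testing: the 13 mRNAs, the 2 rRNAs, mt-Tq and mt-Tp. None of the 17 passed an adjusted P of 0.05 in edgeR's quasi-likelihood test (Benjamini-Hochberg over 16157 genes), none did in DESeq2, and none had an unadjusted P under 0.05 in edgeR. The adjusted threshold was passed by 0% of all genes tested and the unadjusted one by 1.32%. By the rule of the study's methods, an unadjusted P under 0.05 together with a log2 change of more than 1.5 in size, 0 of 17 and 0.458% of all genes were called. The CPM of every one of the 17 genes overlapped between the groups, whereas 5.06% of all genes did not overlap (3.03% higher and 2.02% lower in LGR5+). The fitted log2 fold changes were all negative, from -1.28 (mt-Tq) to -0.25 (mt-Tp) with a median of -0.67, against -0.02 over all genes tested. That direction rested on the LGR5- replicate 3 library: without it the median was -0.02, with 9 of 17 values negative. For the summed share, the log2 ratio of LGR5+ to LGR5- was -0.54 (exact permutation test, two-sided, P = 0.8, adjusted P = 0.805 over 6 tests of the share). It was 0.15 without untreated LGR5- replicate 3. With 3 libraries against 3, this test cannot give a P below 0.1.

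After 5-FU, mitochondrial transcripts were lower in LGR5+ than in LGR5- cells in every library for the total and for 8 of the 17 genes tested, but no gene passed the adjusted threshold. The 6 shares did not overlap (1.47% to 1.84% against 2.005% to 6.44%), with a log2 ratio of -1.06 and the smallest P the exact permutation test allows (P = 0.1, adjusted P = 0.3). Without 5-FU LGR5- replicate 3 the log2 ratio was -0.60. Neither the permutation test nor the main edgeR fit used the replicate numbers as pairs. The 8 genes without overlap were mt-Rnr1, mt-Rnr2, mt-Tq and the complex I subunits mt-Nd1, mt-Nd2, mt-Nd4, mt-Nd5 and mt-Nd6. Of all genes tested, 14% were lower without overlap in this comparison.

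Of the 7 complex I mRNAs, 5 did not overlap, while mt-Nd3 (29.8, 23.2 and 108 CPM in LGR5- against 26.6, 37.9 and 35.1 CPM in LGR5+ cells) and mt-Nd4l (0.418 to 1.53 against 0.323 to 0.732 CPM) did. The CPM of mt-Nd6, the minus-strand mRNA, was 418, 309 and 856 in 5-FU LGR5- cells and 172, 189 and 207 in 5-FU LGR5+ cells. Every LGR5- value was thus above every LGR5+ value. The log2 fold change was -1.39 (SE 0.466, edgeR adjusted P = 0.348), and -0.81 without the LGR5- replicate 3 libraries (SE 0.178, adjusted P = 0.227). The CPM of mt-Rnr1, the 12S rRNA of the small mitochondrial subunit, was 1070, 442 and 1110 against 261, 195 and 243. Its log2 fold change was -1.80 (SE 0.714, adjusted P = 0.365), and -1.56 without the replicate 3 libraries. For mt-Rnr2, the 16S rRNA, the values were 16817, 7798 and 12451 CPM against 6004, 5042 and 5239 CPM, with a log2 fold change of -1.08 (SE 0.52, adjusted P = 0.389). In both rRNAs every LGR5- value lay above every LGR5+ value, an order that leaving out a library cannot change.

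The mRNAs of complex III, complex IV and ATP synthase overlapped between the groups, and a difference between the complexes was not tested. The CPM of mt-Cytb was 4100, 4383 and 21163 in 5-FU LGR5- cells and 3369, 4899 and 5421 in 5-FU LGR5+ cells, so the groups overlapped. Its log2 fold change was -1.03 (SE 0.595, adjusted P = 0.438) and turned to 0.23 without the replicate 3 libraries. The same held for mt-Co3, at 58.6, 63.7 and 399 CPM against 65.2, 82.8 and 87.2 CPM. There the log2 fold change was -1.07 (SE 0.654, adjusted P = 0.465) and became 0.48 without replicate 3. For mt-Co1, the catalytic subunit of complex IV, the values were 1536, 1112 and 3936 CPM against 997, 690 and 1791 CPM, again with overlap.

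Over the 17 genes the log2 fold changes after 5-FU ran from -1.80 (mt-Rnr1) to -0.58 (mt-Nd4l), with a median of -1.21 against 0.03 over all genes tested. All 17 were negative, none was called by edgeR or DESeq2, and 0% of all genes passed that threshold. An unadjusted P under 0.05 was reached by 6 of the 17, against 13% of all genes. The rule of the study's methods called mt-Rnr1 alone, against 1.7% of all genes. Without the LGR5- replicate 3 libraries the median was -0.18, with 10 of 17 negative. Over both treatments together the log2 ratio of the share was -0.80 (stratified exact permutation test, P = 0.09, adjusted P = 0.3) and -0.23 without those libraries (exact P = 0.32). Leaving out untreated LGR5- replicate 1, untreated LGR5- replicate 2 or 5-FU LGR5- replicate 2 instead gave exact P values of 0.045, 0.04 and 0.045. Of the 12 tests without 1 library only these 3 fell under 0.05, and they kept both LGR5- replicate 3 libraries. These comparisons share libraries with those of 5-FU below.

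**Figure D4:**
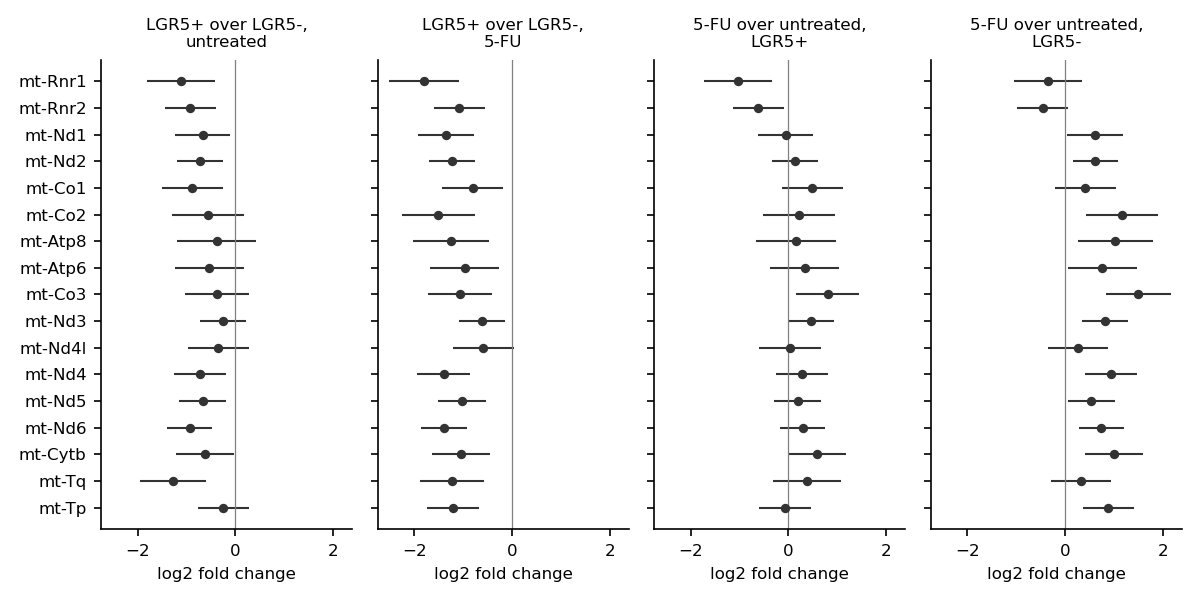
Fitted log2 fold change (points) with its standard error (bars) for the 17 mitochondrial genes tested in each of the 4 comparisons, from edgeR with all 12 libraries. All points are left of 0 in both comparisons of LGR5+ with LGR5- cells, and the 2 rRNAs lie apart from the mRNAs in both comparisons of 5-FU with untreated cells.

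In LGR5+ cells, the total share of mitochondrial reads overlapped between 5-FU and untreated libraries, with opposite signs of the differences for rRNA and mRNA. The log2 ratio of the share was -0.17 (exact permutation test, P = 0.3, adjusted P = 0.6), and it was 0.24 when only the mRNAs were counted (P = 0.5). The rRNAs took 0.571%, 1.41% and 0.829% of reads in untreated LGR5+ cells and 0.626%, 0.524% and 0.548% after 5-FU. The mRNAs took 0.920%, 0.672% and 1.18% before and 0.842%, 1.10% and 1.29% after. Both sets of values overlapped. None of the 17 genes was called by edgeR or DESeq2 and none had an unadjusted P under 0.05, whereas 16% of all genes passed the adjusted threshold (9.66% higher and 6.37% lower) and 30.1% the unadjusted one. The rule of the study's methods called none of the 17 and 7.23% of all genes. The log2 fold changes ran from -1.04 (mt-Rnr1) to 0.80 (mt-Co3), with a median of 0.21 against -0.02 over all genes, and 13 of 17 were positive.

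Of the 17, mt-Co3 alone did not overlap in LGR5+ cells, where 17.7% of all genes tested were higher without overlap. It was at 50.04, 34.0 and 60.5 CPM untreated and at 65.2, 82.8 and 87.2 CPM after 5-FU. Its log2 fold change was 0.80 (SE 0.654, edgeR adjusted P = 0.462). With the 6 LGR5+ libraries alone in the fit the adjusted P was 0.0139, and without the LGR5- replicate 3 libraries it was 0.0207, where 26.7% and 27.5% of all genes were called. The estimate was 0.80 in each of these fits, and the replicate 3 libraries entered the first of them through the spread that all groups share. This gene is among those whose windows nearly all occur in a nuclear copy.

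In LGR5- cells, no mitochondrial gene passed the threshold between 5-FU and untreated libraries when all were used, and 15.4% of all genes did (8.3% higher and 7.11% lower). The log2 ratio of the share was 0.35 (exact permutation test, P = 0.6, adjusted P = 0.805). All 13 mRNAs had positive log2 fold changes, from 0.26 (mt-Nd4l) to 1.501 (mt-Co3), and both rRNAs negative ones, -0.35 for mt-Rnr1 and -0.46 for mt-Rnr2. The signs of the rRNAs turned without the replicate 3 libraries, to 0.82 and 0.57. None of the 17 genes was free of overlap here, whereas 27% of all genes were. Only mt-Co3 had an unadjusted P under 0.05 (log2 fold change 1.501, SE 0.661, edgeR adjusted P = 0.162), at 58.9, 34.3 and 96.8 CPM untreated and 58.6, 63.7 and 399 CPM after 5-FU. The background at that P was 28.7% of all genes, and by the rule of the study's methods mt-Co3 was the 1 gene called, against 7% of all genes. The 399 CPM belong to replicate 3, and without that library the log2 fold change was -0.02. Without 5-FU LGR5- replicate 1 it was 1.92 (edgeR adjusted P = 0.0357), and no other mitochondrial gene was called there, against 15.1% of all genes.

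With the LGR5- replicate 3 libraries of both treatments left out, 3 complex I genes were called in LGR5- cells, from 2 libraries against 2. In that fit 16.9% of all genes were called, so 3 of 17 is close to the background. They were mt-Nd6 (log2 fold change 1.04, SE 0.199, edgeR adjusted P = 0.00329), mt-Nd4 (0.79, SE 0.231, adjusted P = 0.0326) and mt-Nd5 (0.78, SE 0.235, adjusted P = 0.0366). Their CPM in replicates 1 and 2 were 152 and 172 untreated against 418 and 309 after 5-FU for mt-Nd6. For mt-Nd4 they were 830 and 729 against 1558 and 1367, and for mt-Nd5 534 and 471 against 1058 and 817. In replicate 3 the corresponding pairs were 666 and 856, 2981 and 5419, and 2083 and 2412 CPM. In all 3 genes the replicate 3 libraries were above the others of their group. Leaving out only untreated LGR5- replicate 3 called these 3 and mt-Tp, 4 of 17, where 20.8% of all genes were called.

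The response to 5-FU did not differ detectably between the populations. In the interaction test none of the 17 genes was called by edgeR or DESeq2, none had an unadjusted P under 0.05 in edgeR, and 0% of all genes passed the adjusted and 1.57% the unadjusted threshold. The rule of the study's methods gave 0 of 17 and 0.427% of all genes. The differences in log2 fold change, LGR5+ minus LGR5-, had a median of -0.45 and ran from -0.96 (mt-Tp) to 0.08 (mt-Co1). The estimate moved with replicate 3: the median was -1.17 without the untreated and 0.46 without the 5-FU LGR5- replicate 3 library. Over both populations, the share gave a log2 ratio of 0.09 for 5-FU against untreated (stratified exact permutation test, P = 0.805), and 0.21 without the LGR5- replicate 3 libraries (exact P = 0.517).

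Within the pool of 13 mRNAs, mt-Nd1 had a smaller share in every 5-FU library than in every untreated library. This gene was singled out after its values were seen, and the shares are a description without a test. Of the reads on the 13 mRNAs, mt-Nd1 took 28.0%, 26.8% and 26.2% in untreated LGR5- cells and 27.2%, 25.6% and 27.8% in untreated LGR5+ cells. After 5-FU its share in LGR5- cells was 22.01%, 22.9% and 24.7%, and that in LGR5+ cells 19.8%, 22.6% and 19.9%. The replicate 3 libraries were not exceptions to this order. The shares of the other 12 mRNAs overlapped between the 6 untreated and the 6 5-FU libraries, for example mt-Cytb at 28.7% to 41.5% and 31.7% to 44.7%, and mt-Co1 at 6.77% to 13.03% and 6.29% to 13.9%. In CPM none of the 17 tested genes separated the 6 libraries of each treatment, which 15.8% of all tested genes did.

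The tRNAs were close to the detection limit. Of the 22 tRNA genes, 12 had no read in any library, which allows up to 0.155 to 0.218 CPM in each, and the 10 others held 813 reads in all. The 8 tRNA genes of the minus strand held 792 of these reads, on 5 genes, and the 14 genes of the plus strand 21 reads, also on 5 genes. Only mt-Tp (26 to 125 reads per library) and mt-Tq (2 to 33 reads) had a read in every library. For mt-Tp the CPM were 1.52, 1.55 and 5.66 in untreated LGR5- cells, 1.98, 2.16 and 2.97 in untreated LGR5+ cells, 3.98, 2.57 and 9.09 in 5-FU LGR5- cells and 2.96, 2.08 and 1.35 in 5-FU LGR5+ cells. The highest values were those of the replicate 3 libraries, as for mt-Tq, which had 33 and 23 reads there and 2 to 16 elsewhere. The tRNAs mt-Te (22 reads in 7 libraries), mt-Tt (16 in 6) and mt-Ta (7 in 3) followed, and mt-Tv, mt-Tl1, mt-Tm, mt-Ts1 and mt-Tr had 1 or 2 reads in all. Whether these reads came from mature tRNAs, precursors or neighbouring transcripts was not tested. The strand setting of the counting is not given in the sources used here.

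The nuclear genes of oxidative phosphorylation showed few calls. Of 80 tested subunits of the 5 complexes, 1 was higher with 5-FU in LGR5+ cells and 2 in LGR5- cells, none was lower, and the background was 16% and 15.4% of all genes. The calls were in isoforms of complex IV. Cox4i2, an alternative form of subunit 4, was at 1.19, 0.618 and 1.33 CPM in untreated LGR5+ cells and 1.78, 5.74 and 3.57 CPM after 5-FU (log2 fold change 1.89, SE 0.522, edgeR adjusted P = 0.0228). In LGR5- cells it was at 1.17, 1.29 and 1.31 CPM untreated and at 4.29, 10.9 and 17.5 CPM after 5-FU (3.10, SE 0.521, adjusted P = 0.0013). Cox6b2, a form of subunit 6b known from testis, rose in LGR5- cells from 30.3 ± 6.24 to 91.5 ± 28.7 CPM (mean ± SD, n = 3; log2 fold change 1.58, edgeR adjusted P = 0.00249). In LGR5+ cells its log2 fold change was 0.86 (adjusted P = 0.0551). The median over the 80 subunits was 0.07 in LGR5+ and 0.22 in LGR5- cells, beside 0.21 and 0.74 for the 17 mitochondrial genes. 

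The machinery that maintains and reads mitochondrial DNA had more members called, at or near the background of 16% and 15.4%. Of 25 tested genes, 1 was higher and 2 lower in LGR5+ cells (12% called), and 1 was higher and 4 lower in LGR5- cells (20%). Lonp1, the matrix protease that degrades Tfam among other proteins, fell in both populations, from 93.2 ± 7.46 to 47.8 ± 7.46 CPM among LGR5+ libraries (log2 fold change -0.88, edgeR adjusted P = 0.0169) and from 87.9 ± 12.6 to 40.3 ± 16.1 CPM among LGR5- libraries (-1.15, adjusted P = 0.00416; mean ± SD, n = 3). Tymp, thymidine phosphorylase, rose in both, by log2 fold changes of 1.35 (adjusted P = 0.0168) and 1.31 (adjusted P = 0.0226), at levels of at most 4.96 CPM. Tfam, which packages mitochondrial DNA and starts its transcription, fell in LGR5- cells, from 74.5, 66.9 and 64.1 CPM to 52.1, 48.3 and 32.8 CPM (log2 fold change -0.66, SE 0.202, adjusted P = 0.0391). That call was lost in 7 of 15 alternatives, 4 of them without untreated LGR5- replicate 1 or 2 or 5-FU LGR5- replicate 2 or 3 (edgeR adjusted P = 0.0652 to 0.151). In LGR5+ cells Tfam was at 76.3, 51.9 and 71.3 CPM untreated and 51.1, 48.0 and 42.2 CPM after 5-FU (-0.41, adjusted P = 0.186). These values did not overlap, by the small margin of 51.9 against 51.1 CPM, and the adjusted P missed the threshold. Of all genes tested, 23.1% were lower without overlap in this comparison.

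The polymerase Polrmt had log2 fold changes of -0.17 (LGR5+, edgeR adjusted P = 0.62) and -0.53 (LGR5-, adjusted P = 0.086). The initiation factor Tfb2m had 0.35 (adjusted P = 0.316) and -0.09 (adjusted P = 0.836). Lrpprc, which stabilises mitochondrial mRNAs, had -0.28 (adjusted P = 0.293) and -0.45 (adjusted P = 0.0878). Ppargc1a, the coactivator of mitochondrial biogenesis, had -0.45 (adjusted P = 0.187) and -0.40 (adjusted P = 0.253). None of these 4 passed the threshold in either population.

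Of 31 genes of mitochondrial RNA processing and stability, none was called in LGR5+ cells and 1 was lower in LGR5- cells, Ptcd3, a protein of the small mitochondrial ribosomal subunit (log2 fold change -0.81, edgeR adjusted P = 0.0314). Of 78 mitochondrial ribosomal proteins, Mrpl36 rose and Mrps9 fell in both populations, with log2 fold changes of 0.62 (LGR5+, edgeR adjusted P = 0.0388) and 0.67 (LGR5-, adjusted P = 0.029) for Mrpl36 and of -0.47 (adjusted P = 0.0413) and -0.49 (adjusted P = 0.0363) for Mrps9. The calls of Mrpl36 were lost in 6 of 15 alternatives in each population. Those of Mrps9 were lost in 7 of 15 in LGR5+ cells, including without any one of the 6 libraries (adjusted P = 0.0979 to 0.176), and in 8 of 15 in LGR5- cells. The list's median was -0.02 and -0.03. Of 10 biogenesis regulators, Nrf1, a transcription factor for nuclear respiratory genes, was called in LGR5- cells (-0.67, adjusted P = 0.00784) and had -0.44 in LGR5+ cells (adjusted P = 0.0609).

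Genes that the transcription factor ATF4 induces under mitochondrial stress were the exception to this small number of calls. Of 13 tested, 10 fell and 1 rose in each population, which is 84.6% beside 16% and 15.4% of all genes, with medians of -1.86 and -1.76. The lists were chosen with earlier results of these data known, so this share is a description and not a test of the list. Mthfd2, a folate enzyme of the mitochondrial matrix, was at 67.2, 128 and 94.6 CPM in untreated and 17.8, 16.2 and 12.1 CPM in 5-FU LGR5+ cells (log2 fold change -2.57, SE 0.294, edgeR adjusted P = 4.45e-05). In LGR5- cells it went from 63.8, 84.2 and 59.5 CPM to 18.6, 14.9 and 8.58 CPM (-2.34, SE 0.293, adjusted P = 0.00014). Chac1, a glutathione-degrading enzyme, fell from 28.1 ± 13.8 to 1.77 ± 0.187 CPM in LGR5+ cells and, among LGR5- libraries, from 20.3 ± 8.55 to 1.24 ± 0.974 CPM (mean ± SD, n = 3; adjusted P = 0.000193 and 0.000282). Aldh1l2, the mitochondrial form of 10-formyltetrahydrofolate dehydrogenase, fell from between 5.72 and 33.8 CPM to between 0.113 and 0.593 CPM in LGR5+ cells (adjusted P = 0.00019), which is at or close to the detection limit. Between LGR5+ and LGR5- cells none of the 237 genes of the 10 nuclear lists was called in either treatment by edgeR or DESeq2, and 0 (untreated) and 12 (5-FU) had an unadjusted P under 0.05, which is 0% and 5.06% beside 1.32% and 13% of all genes.

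**Figure D5:**
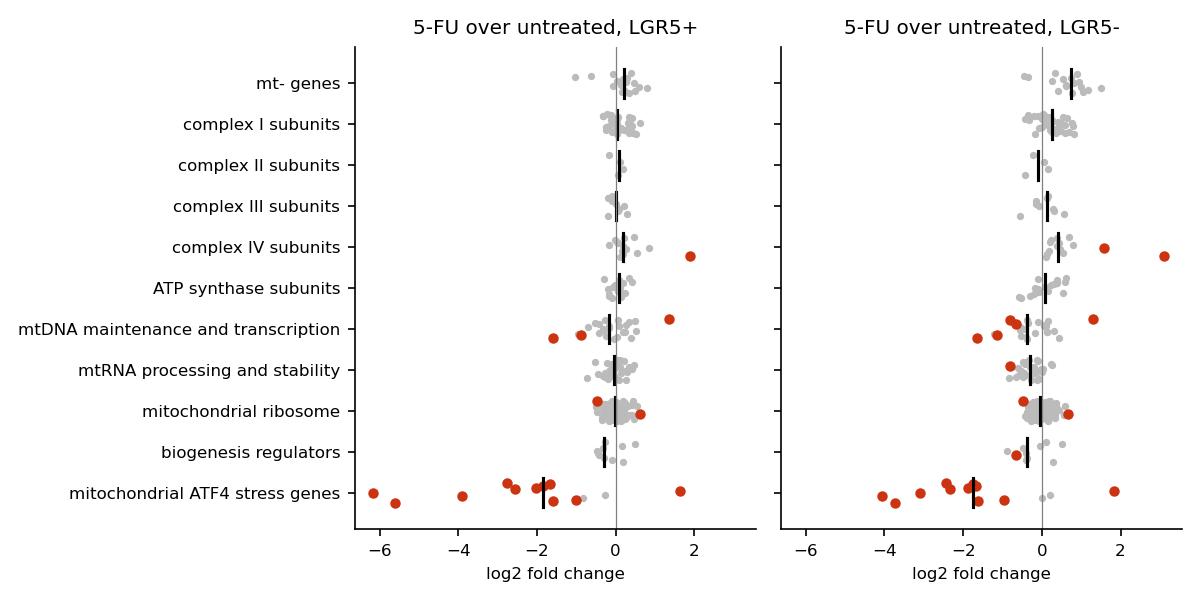
Fitted log2 fold change of 5-FU over untreated cells for the 17 tested mitochondrial genes and the tested members of 10 lists of nuclear mitochondrial genes, in LGR5+ (left) and LGR5- (right) cells. Red points passed an adjusted P of 0.05, grey points did not, and black bars are medians. The ATF4 stress genes lie mostly below 0 in both panels (medians -1.86 and -1.76), and no mitochondrially encoded gene is red.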

How the data were processed

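RNA of sorted organoid cells was amplified with SMARTer/SMART-Seq v4 chemistry, sheared and sequenced as paired 150-base reads, per the labels and the study's methods. The deposited table holds raw counts per Ensembl gene, and the authors counted replicates separately. The submitters' processing notes name HISAT2, HISAT, TopHat2, HTSeq and the build mm8, with no role or order. Annotation, strand setting and the handling of reads with several matches are not given in the sources used here, and all of these bear on genes with nuclear copies, on overlapping genes and on tRNAs.

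Symbols were matched for 46488 of 47069 gene IDs (581 unmatched). All genes entered one edgeR 4.0.16 fit (R 4.3.3; TMM, filterByExpr, robust quasi-likelihood test, 4 group means over 12 libraries), with P values adjusted over 16157 genes and calls at 0.05. CPM in the text are scaled to the column total, and fold changes are the fit's TMM-scaled log2 values. The fit was tested on simulated data with known changes in the 5-FU LGR5+ libraries. It called 30.6% of genes changed by a log2 fold of 1 and 79.6% of those changed by 2. Most changes of the smaller size were thus missed. The changed genes were drawn at random from all tested genes, and the rates need not hold for the mitochondrial genes. For 5-FU against untreated LGR5+ cells the mitochondrial genes had standard errors of 0.458 (mt-Nd6) to 0.819 (mt-Atp8). The share was tested by exact permutation over libraries (Python 3.11.15), 6 tests in all. Sequences were read by gene ID from the GENCODE M21 transcripts and aligned with Biopython 1.88. No pair of libraries agreed within sampling noise.

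Genes named were all members, and Polrmt, Tfam, Tfb2m, Lrpprc and Ppargc1a. To these were added, for each other nuclear list and comparison, up to 2 genes with the smallest adjusted P under 0.05, and the listed nuclear pseudogenes. Members and lists were chosen with earlier results of these data known. Replicate numbers are shared across groups. Deviations from the group means correlated between same-numbered libraries above 0.1 for every number only between LGR5+ and LGR5- cells after 5-FU (0.571, 0.217 and 0.304), so only those met the rule for pairing. The main fit and the exact permutation tests did not use this pairing. It entered only through the replicate block and the sign flips, given as alternatives. Alternatives were other scalings, filters, DESeq2 1.42.0, a replicate block and fits without single libraries.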

Additional observations from a re-analysis of the deposited data

How the results depend on the processing

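The number of mitochondrial genes called stayed at 0 in all 5 comparisons under other scalings (DESeq2 size factors, library size only, TMM without the mitochondrial genes), without the filter, with at least 10 reads in every library, in DESeq2 and with the replicate block. It became 1 in LGR5+ cells for 5-FU against untreated when only the libraries compared were fitted. Without LGR5- replicate 3 in both treatments it became 1 in LGR5+ and 3 in LGR5- cells. Leaving out single libraries gave 0 to 4 calls in LGR5- cells for 5-FU and 0 elsewhere. Fewer libraries enter these fits. The log2 ratio of the share, over fits that leave out 1 library, ran from -0.89 to 0.15 for LGR5+ against LGR5- untreated, -1.44 to -0.60 after 5-FU, -0.32 to -0.08 for 5-FU in LGR5+ cells and -0.10 to 1.04 in LGR5- cells. It ran from -0.14 to 0.44 for 5-FU over both populations and from -0.99 to -0.46 for LGR5+ against LGR5- over both treatments. With the mRNAs alone it was 0.24 for 5-FU in LGR5+ cells, against -0.17 with all genes, since the rRNAs carried the negative part. Dividing by the reads on all other genes, or adding the nuclear pseudogenes, kept the sign of every share. The rRNAs alone gave -0.11 for 5-FU in LGR5- cells, against 0.35 with all genes. Over both populations they gave -0.37 for 5-FU, against 0.09.

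Signs of mt-Rnr1, mt-Rnr2, mt-Nd6, mt-Cytb and mt-Co3 were followed for 5-FU in LGR5- cells and for LGR5+ against LGR5- after 5-FU. There, reversed signs came only from leaving out LGR5- replicate 3. Signs also changed elsewhere: for 5-FU in LGR5+ cells, 13 of 17 were positive with all libraries and 9 without untreated LGR5+ replicate 2. Without LGR5- replicate 3 in both treatments, 5-FU against untreated LGR5- cells gave 0.82 for mt-Rnr1 and 0.57 for mt-Rnr2. LGR5+ against LGR5- after 5-FU then gave 0.23 for mt-Cytb and 0.48 for mt-Co3. Over fits without 1 library the ranges for 5-FU in LGR5- cells were -0.81 to 1.06 for mt-Rnr1, -0.83 to 0.60 for mt-Rnr2, -0.23 to 1.55 for mt-Cytb and -0.02 to 1.92 for mt-Co3. For LGR5+ against LGR5- after 5-FU they were -1.40 to 0.20 for mt-Cytb and -1.48 to 0.45 for mt-Co3. Of the nuclear genes, Tfb2m in LGR5- cells (-0.30 to 0.0885) and Ptcd3 in LGR5+ cells (-0.22 to 0.23) changed sign, and neither was called there. Calls of nuclear genes were lost without a single library for Mrpl36 (LGR5+ cells, all but 5-FU replicate 1, adjusted P = 0.0701 to 0.157; LGR5- cells, untreated 1 or 3 or 5-FU 2 or 3, 0.0581 to 0.092) and for Mrps9 in LGR5- cells (all but untreated replicate 3, 0.0576 to 0.118). The same held for Ptcd3 (untreated LGR5- 1 or 2 or 5-FU LGR5- 3, 0.0715 to 0.13), for Cox4i2 (replicate 2 or 3 of either LGR5+ group, 0.0544 to 0.116) and for Lonp1 in LGR5+ cells (untreated 3 or 5-FU 2 or 3, 0.0644 to 0.0898). Tymp lost its call without untreated LGR5+ 1 or 3 or 5-FU LGR5+ 2 (0.0621 to 0.0755) and without untreated LGR5- 2 or 5-FU LGR5- 1 or 2 (0.0548 to 0.0932). Other alternatives cost Nrf1 and Aldh1l2 1 call each in LGR5- cells. The nuclear lists, whose alternatives were chosen after seeing the data, held 17 calls in LGR5+ and 22 in LGR5- cells for 5-FU. Counts outside 1.5 times those were 29 and 14 with only the libraries compared and 33 in LGR5+ cells without LGR5- replicate 3 in both treatments. Leaving out 1 library gave 11 to 17 and 15 to 32. The cause was not tested.

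With the replicate number as a block, 0 mitochondrial genes were called in each of the 5 comparisons. In the paired comparison, LGR5+ against LGR5- after 5-FU, the log2 fold change of mt-Nd6 was -1.23 under the block (edgeR adjusted P = 0.174). Sign flips over same-numbered pairs gave exact P values of 0.75, 0.25, 0.25 and 0.5 for the share in the 4 comparisons of groups. With 3 pairs, sign flips cannot give a P below 0.25. In the other comparisons the numbers did not meet the rule for pairing, and the labels do not say what a number marks. The block gave 19 and 25 nuclear calls. Depth limits the tRNAs, mt-Atp8 and mt-Nd4l, which are at or near a few reads per library.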
